A study of Gallus gallus with 8 samples.

Results

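The genes described here encode the nuclear subunits of the mitochondrial respiratory chain and of ATP synthase, measured by mRNA sequencing in the hearts of chicken embryos. They were chosen by symbol, with earlier results of these data known. The rule took rows whose symbol starts with NDUF, UQCR, COX4 to COX8 or ATP5 or is one of the SDH subunit genes. It left out the W-linked ATP5A1W and required at least 1 RPKM in at least 2 libraries. RPKM values are read numbers divided by gene model length and by sequencing depth. The rule gave 61 genes of the 15873 in the table, and all 61 passed the filter on low values. They comprise 56 genes counted as subunits, with 28 in complex I, 3 in complex II, 6 in complex III, 8 in complex IV and 11 in complex V, and 5 complex I assembly factors. NDUFA4 was placed in complex IV, where its protein is known to sit. COX7A2L, a factor of supercomplex assembly, and ATP5S, a coupling factor that is not a stable subunit, were kept where their symbols place them. Genes without a row under these symbols, such as SDHB, COX5B and the SDHAF assembly factors, are not analysed here.

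The libraries were made from RNA of embryonic hearts taken 16 days into incubation, from 4 breeds with 2 libraries each. Linzhi Tibetan and Lhasa White, named after places on the Tibetan plateau, were treated as highland breeds (4 libraries), and Chahua and White Leghorn (spelled White leghom in the labels) as lowland breeds (4 libraries). All embryos shared the tissue and the age, no treatment is labelled, and neither sex, heart chamber, altitude nor oxygen during incubation is given. Whether the pair of libraries per breed stems from different embryos is not labelled. The W-linked ATP5A1W was at 4.02 and 398 RPKM in the Lhasa White libraries and 409 and 0.241 in the White Leghorn ones. Repeats of 1 embryo would not differ so. For Linzhi Tibetan and Chahua the values do not decide this. P-values therefore rest on library-to-library spread within breeds, some of which may be technical. Spread between the breeds of a group does not enter the p-values or standard errors. It does enter the SDs given for highland and lowland libraries.

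Oxidative phosphorylation moves electrons from NADH through complex I, or from succinate through complex II, to ubiquinone, complex III and cytochrome c, and complex IV passes them to oxygen. Complexes I, III and IV pump protons across the inner mitochondrial membrane, and complex V, the ATP synthase, uses the returning protons to make ATP. Complexes I, III, IV and V are built from nuclear and mitochondrially encoded subunits, complex II from nuclear ones alone, and the beating heart, which depends on aerobic ATP, holds large amounts of them.

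Sequencing depth, recovered from the steps of the RPKM values, ran from 17245669 mapped reads in Chahua 1 to 22157553 in Linzhi Tibetan 2. The genes measured held 92.51% of the mapped reads in Linzhi Tibetan 1, against 95.38% to 96.29% in the others. A subunit gene had between 62 and 67876 reads in a library. Cardiomyocyte markers such as the troponin gene TNNT2, at 5502 to 8848 RPKM, were high in every library. Lhasa White 2 stood apart in some of its chamber transcripts and in its matrix transcripts. The atrial myosin MYH7 was at 1457 RPKM there, against 115 in Chahua 2 and 0.878 to 7.07 in the other 6 libraries. The atrial marker NPPA was not raised, at 1690 RPKM against 1286 to 2717 in the others. Ventricular markers (5 rows) had their lowest sum there, at 18226.5 RPKM, though MYL3, at 7491 RPKM, was not low (6672 to 10168 in the others). In the same library 6 fibroblast and matrix genes summed to 4277 RPKM, against 959.9 to 1719. The W-linked ATP5A1W was at 398 to 496 RPKM in Lhasa White 2, both Chahua libraries and White Leghorn 1, and at 0.0774 to 4.02 in the other 4. Red blood cell markers (2 genes) summed to 4789 RPKM in Linzhi Tibetan 1 and 20365 in Lhasa White 1, the extremes. In such bulk samples, fewer cells of a type and less RNA per cell cannot be told apart.

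Subunit genes were among the most abundant nuclear transcripts of the heart. Of the 56, 52 lay in the top 10% of the 11556 genes tested, and the median subunit had a mean of 243 RPKM. ATP5B (ENSGALG00000022539), the catalytic beta subunit of ATP synthase, had the highest mean at 1773 RPKM, followed by COX6A1, a small subunit of complex IV, at 1506, NDUFB1, a small accessory subunit of complex I, at 1292, ATP5A1, the alpha subunit of ATP synthase, at 1119, and COX4I1, a regulatory subunit of complex IV, at 1065. At the low end stood ATP5S at 4.80 RPKM, ATP5J2, subunit f of the ATP synthase membrane part, at 9.31, COX7A2L at 18.7 and NDUFS4, an accessory subunit of complex I, at 44.7. The median of the gene means was 199 RPKM in complex I, 210.4 in complex II, 445 in complex III, 618 in complex IV and 498 in complex V. Levels of different genes depend on their gene models, whose lengths ran from 229 bases for NDUFB1 to 4807 for UQCRFS1. The models were not checked, so these ranks may not be those of the transcripts themselves. Within a gene the libraries lay close together: the highest library was 1.47-fold above the lowest for the median subunit, with a range over genes from 1.22-fold for ATP5G2 to 2.84-fold for NDUFS4.

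**Figure D1:**
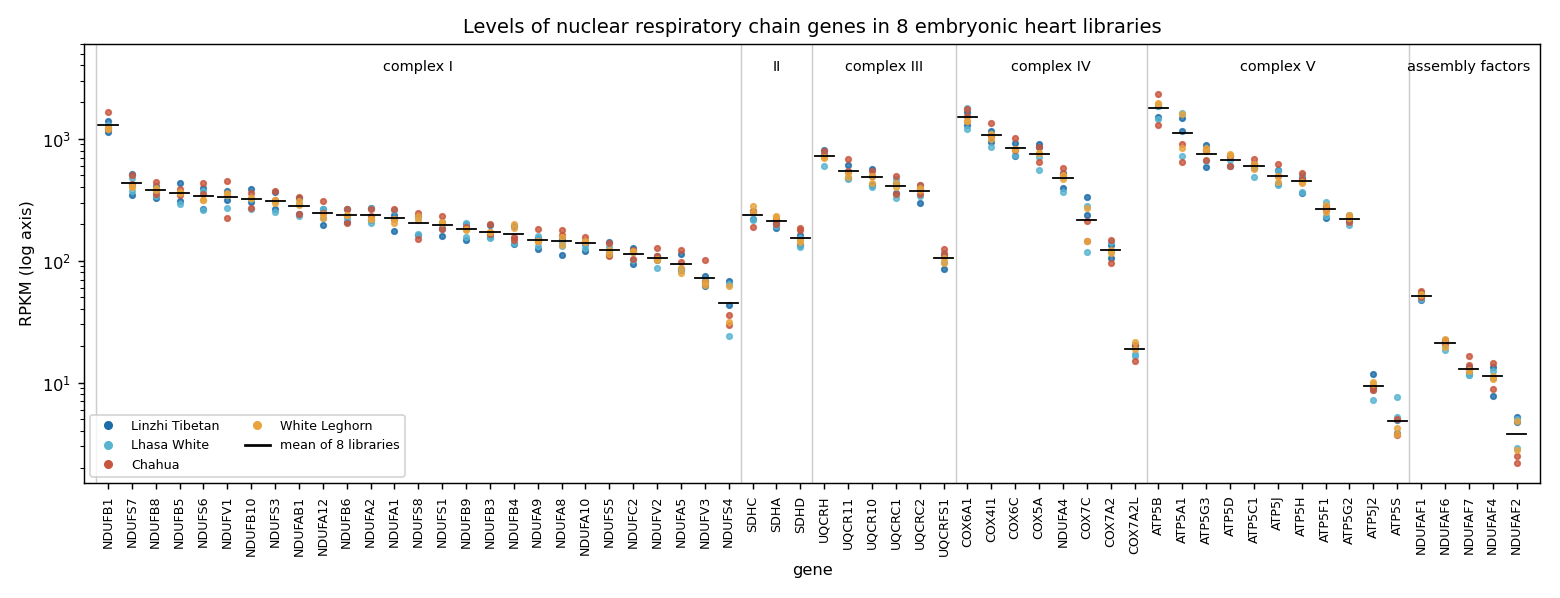
RPKM (log axis) of 60 of the 61 respiratory chain genes in the 8 heart libraries, grouped by complex and ordered by mean. Points are single libraries coloured by breed and black bars are means of 8 libraries. ATP5B is highest at a mean of 1773 RPKM and ATP5S lowest among subunits at 4.80, with the Z-linked NDUFS4, COX7C and ATP5A1 spread most widely.

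Setting highland against lowland breeds asked whether respiratory chain transcripts differ between these groups of breeds. No member passed in the limma test: 0 of 61 genes passed an adjusted p of 0.05, with an adjusted p of 0.999 for each, where 1 of 11556 genes passed in all, a background of 0.00865%. At an unadjusted p under 0.05 there were 0 members as well, against 3.13% of all genes, and voom on recovered reads called 0 members. Most differences were small and pointed one way. Of the 56 subunit genes, 48 had a lower fitted mean in highland breeds, or 85.7% against 42% of all genes, with a median log2 difference of -0.08 against 0.03 over all genes, both given as descriptions. Every complex had more lower than higher genes, with 24 of 28 in complex I, 3 of 3 in complex II, 6 of 6 in complex III, 6 of 8 in complex IV and 9 of 11 in complex V. The lean to lower values rested on single libraries. Without Linzhi Tibetan 1 the count was 26 lower and 30 higher with a median of 0.00, and without Lhasa White 2 it was 31 lower and 25 higher with a median of -0.02. Without Linzhi Tibetan 2 the median was -0.17 and without Lhasa White 1 it was -0.15, with 50 and 52 genes lower. With the ATP5A1W level as a covariate, an alternative chosen after the data were seen, it was -0.14 with 53 genes lower. The slope of that covariate rested mainly on Lhasa White and White Leghorn, whose libraries differed widely in ATP5A1W.

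**Figure D2:**
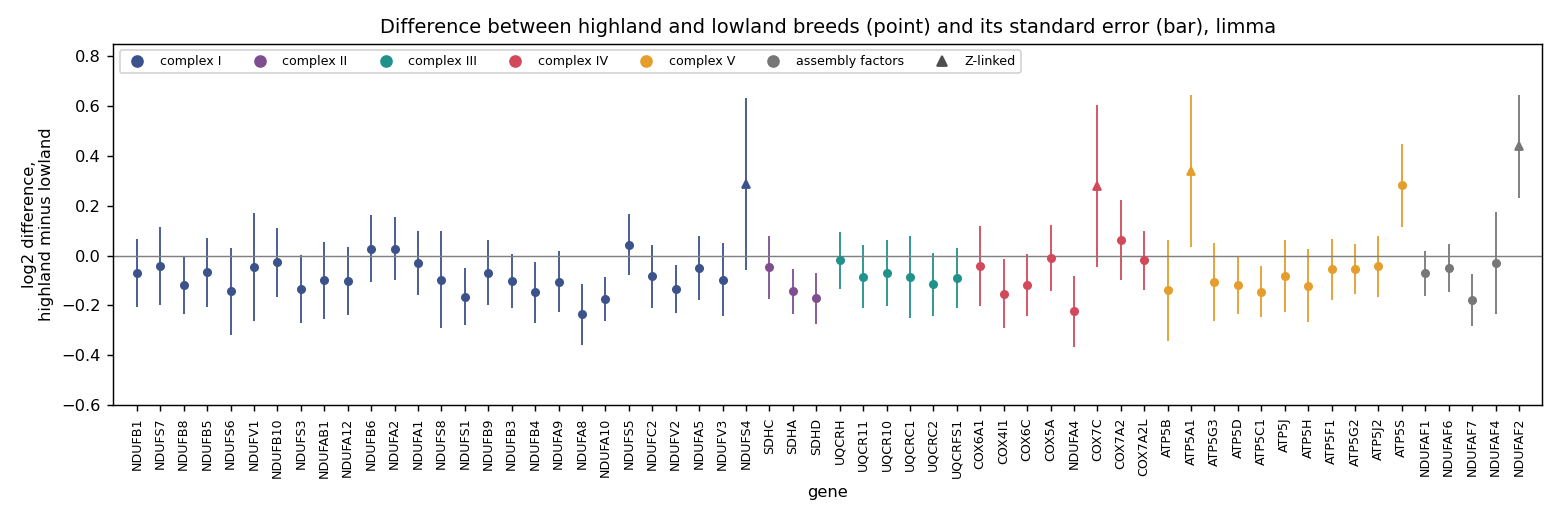
Highland minus lowland difference of log2(RPKM + 1) for 60 of the 61 genes (points) with its standard error (bars) from limma, coloured by complex, with triangles for Z-linked genes. Of the 55 subunit genes shown 47 lie below 0, and the 3 Z-linked subunits lie above it with wide bars.

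The division by library was sharper than that by breed group. For each gene, the deviation of log2(RPKM + 1) from its mean over the 8 libraries was taken. The median deviation of the 56 subunits was -0.19 and 0.14 for Linzhi Tibetan 1 and 2, 0.06 and -0.20 for Lhasa White 1 and 2, 0.08 and 0.05 for those of Chahua, and 0.03 and 0.00 for those of White Leghorn. Over all genes tested these medians stayed between -0.10 and 0.05. With median-of-ratios scaling the subunit median was 0.18 in Chahua 1, -0.02 in Chahua 2 and -0.27 in Lhasa White 2, and -0.17 in Linzhi Tibetan 1. Linzhi Tibetan 1 and Lhasa White 2 were thus the low libraries, and each is paired with a higher library of its own breed. Linzhi Tibetan 2 was above Linzhi Tibetan 1 in 53 of 56 subunit genes (median log2 difference 0.34), where 50.8% of all genes were higher in it. Lhasa White 2 was below Lhasa White 1 in 53 of 56 (median -0.27), where 55% of all genes were higher in it. In White Leghorn the libraries nearly coincided, with a median absolute difference of 0.06, and in Chahua 31 genes were higher and 25 lower in library 2, with a median absolute difference of 0.29. Each complex repeated the pattern. The medians in Linzhi Tibetan 1 ran from -0.21 in complex V to -0.18 in complex II, and those in Lhasa White 2 from -0.31 in complex IV to -0.15 in complex II. Linzhi Tibetan 1 had the lowest red blood cell sum. Chahua 1 and 2, whose subunit medians were not low, also had low red blood cell sums, at 6714 and 6886 RPKM. Lhasa White 2 had the highest matrix sum and the lowest cardiomyocyte sum (15226 RPKM over 7 genes, against 16080 to 20948). The cardiomyocyte sum of Linzhi Tibetan 1 was 19537 RPKM. Within that list ACTC1 was lowest in Linzhi Tibetan 1 (1531 RPKM) and not low in Lhasa White 2 (2349). The part of these marker levels in the subunit levels was not tested. The share of mapped reads taken by the 56 subunits was 1.72% in Lhasa White 2, 1.85% in Linzhi Tibetan 1 and 2% to 2.32% in the others.

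**Figure D3:**
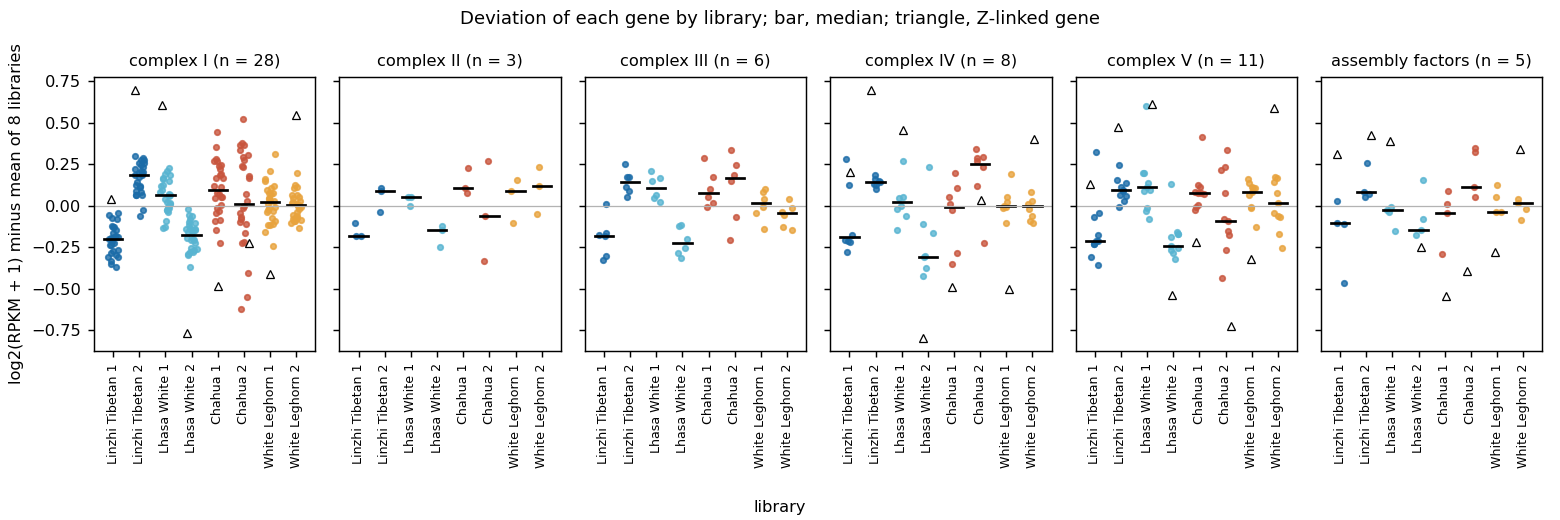
Deviation of log2(RPKM + 1) of each gene from its mean over 8 libraries, by complex (panels) and library (horizontal axis). Points are genes, bars are medians and open triangles are Z-linked genes. The medians of Linzhi Tibetan 1 and Lhasa White 2 lie below 0 in every complex, and Chahua 2 is the most widely spread in complexes I, II, III and V but not in complex IV.

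Complex I, the NADH dehydrogenase, had 28 measured nuclear subunits. All 28 were higher in Linzhi Tibetan 2 than in Linzhi Tibetan 1, and all 28 lay below their mean in Lhasa White 2. NDUFA10 (ENSGALG00000004302), an accessory subunit, had the smallest p of the complex. It stood at 121 and 136 RPKM for Linzhi Tibetan, 139.6 and 126 for Lhasa White, 144 and 157 for Chahua and 146 and 143 for White Leghorn. Every highland library lay below every lowland one, which no other member showed, and 0.597% of all genes had highland libraries all below and 0.935% all above. Highland libraries averaged 131 ± 8.67 RPKM and lowland ones 147 ± 6.62 (SD, n = 4 per group, log2 difference -0.17, SE 0.0891, limma adjusted p = 0.999).

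NDUFA8, an accessory subunit with paired cysteine motifs, stood at 112 and 152 RPKM for Linzhi Tibetan, 142 and 131 for Lhasa White, 162 and 178 for Chahua and 157 and 135 for White Leghorn. Its groups overlapped through White Leghorn 2, with means of 134 ± 17.1 RPKM (highland) and 158 ± 17.8 (lowland, SD, n = 4, log2 difference -0.24, SE 0.122, limma adjusted p = 0.999). NDUFB4, another accessory subunit, was at 201 and 186 RPKM in White Leghorn and 194 in Linzhi Tibetan 2 against 138 to 155 in the other 5 libraries. It was lower in Lhasa White than in White Leghorn by 0.41 on the log2 scale (unadjusted p = 0.0486, limma adjusted p = 1 over all genes). NDUFA5 stood at 84.3 and 114 RPKM for Linzhi Tibetan, 84.9 and 86.0 for Lhasa White, 96.6 and 122 for Chahua and 78.7 and 87.7 for White Leghorn, so that Linzhi Tibetan 2 and Chahua 2 were its high libraries.

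The 7 nuclear core subunits of complex I carry, as a set, its flavin and iron-sulfur clusters. Their median deviation was 0.27 in Chahua 1, -0.26 in Lhasa White 2 and -0.22 in Linzhi Tibetan 1. In Chahua 2 it was -0.10, against 0.17 for the 21 accessory subunits. NDUFV1, which binds NADH and flavin, stood at 312 and 373 RPKM for Linzhi Tibetan, 348 and 271 for Lhasa White, 448 and 224 for Chahua and 347 and 358 for White Leghorn. NDUFV2, its partner in the same module, stood at 101 and 109, 103 and 86.9, 109.5 and 126, and 103 and 100.5 RPKM in the same order. Chahua 2 was thus the lowest library for NDUFV1 and the highest for NDUFV2, and the ratio of their levels was 1.77 there against 3.08 to 4.09 elsewhere. NDUFS8, an iron-sulfur subunit, was at 151 RPKM in Chahua 2 and 163 to 245 in the others. The accessory subunits NDUFV3 and NDUFS6 went the other way: NDUFV3 was at 102 RPKM in Chahua 2 and 61.8 to 75.3 in the others, and NDUFS6 at 431 RPKM against 259 to 397. NDUFB1, the most abundant of the complex, was at 1657 RPKM in Chahua 2 and 1147 to 1398 in the others. Accessory subunits below their mean in Chahua 2 included NDUFB10 (log2 deviation -0.223), NDUFAB1 (-0.216) and NDUFS5 (-0.165). The core subunits NDUFS3 (0.026) and NDUFS7 (-0.003) lay near their mean there. The division into core and accessory subunits was not set in advance, and these genes of Chahua 2 were picked after their values were seen.

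Complex II, succinate dehydrogenase, was represented by SDHA, its flavoprotein, and by SDHC and SDHD, its membrane anchors. SDHA stood at 185 and 205 RPKM for Linzhi Tibetan, 217 and 193 for Lhasa White, 221 and 201 for Chahua and 233 and 228 for White Leghorn. It was among the steadiest members, with a highest library 1.26-fold above the lowest, and its groups stood at 199.9 ± 14.2 and 221 ± 14.0 RPKM (SD, n = 4, log2 difference -0.14, SE 0.0903, limma adjusted p = 0.999). SDHC stood at 220.4 and 255 RPKM for Linzhi Tibetan, 246 and 214 for Lhasa White, 255 and 188 for Chahua and 253 and 278 for White Leghorn. SDHD stood at 135 and 164, 153 and 129, 180.1 and 185, and 143 and 149 RPKM in that order. The anchors parted in Chahua 2, where SDHC was at its lowest and SDHD at its highest, with a ratio of 1.02 against 1.42 to 1.87 in the other libraries. SDHD was lower in Lhasa White than in Chahua by 0.38 on the log2 scale (unadjusted p = 0.0341, limma adjusted p = 0.91), and between highland and lowland groups it was at 145 ± 16.0 and 164 ± 21.7 RPKM (SD, n = 4, log2 difference -0.17, SE 0.102, limma adjusted p = 0.999).

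In complex III, which passes electrons from ubiquinol to cytochrome c, all 6 nuclear subunits were higher in Linzhi Tibetan 2 than in library 1 and lower in Lhasa White 2 than in library 1. UQCRH, the hinge protein that holds cytochrome c1, was the most abundant, at 730.3 and 816 RPKM for Linzhi Tibetan, 756 and 595 for Lhasa White, 720.0 and 802 for Chahua and 703 and 697 for White Leghorn. Only Lhasa White 2 lay well apart from the rest. UQCRC2, a core subunit, stood at 297 and 386 RPKM for Linzhi Tibetan, 418 and 341 for Lhasa White, 419 and 355 for Chahua and 395 and 383 for White Leghorn. UQCRFS1, the Rieske iron-sulfur protein, stood at 85.2 and 112, 116 and 97.1, 113 and 125, and 104 and 94.8 RPKM in the same order. Both had Linzhi Tibetan 1 as their lowest library and overlapping groups, with log2 differences of -0.11 (SE 0.126) and -0.09 (SE 0.12) and a limma adjusted p of 0.999 each. UQCR11, the smallest subunit, was highest in Chahua 2 at 679 RPKM, against 469 to 607 in the others.

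Complex IV, cytochrome c oxidase, held subunits that followed the low libraries and others that did not. COX6A1, the non-muscle form of subunit VIa in mammals, stood at 1289 and 1669.9 RPKM for Linzhi Tibetan, 1799.7 and 1208 for Lhasa White, 1549 and 1753 for Chahua and 1390.2 and 1390.1 for White Leghorn. COX4I1 stood at 936 and 1153, 1093 and 853, 1063 and 1337, and 1094 and 991 RPKM in that order. Both were lowest in Lhasa White 2. NDUFA4 had the largest highland to lowland difference of the complex among autosomal genes, at 444 ± 77.2 and 515 ± 42.8 RPKM (SD, n = 4, log2 difference -0.22, SE 0.141, limma adjusted p = 0.999). It stood at 392 and 526 RPKM for Linzhi Tibetan, 493 and 367 for Lhasa White, 512 and 573 for Chahua and 471 and 503 for White Leghorn, and Linzhi Tibetan 1 and Lhasa White 2 were its lowest libraries.

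COX5A, a matrix-side subunit, departed from the rest. It stood at 910.03 and 849.9 RPKM for Linzhi Tibetan, 716 and 559 for Lhasa White, 857 and 639 for Chahua and 759 and 764 for White Leghorn. Linzhi Tibetan 1 was its highest library, as it was for ATP5J2 and for no other subunit gene. COX5A was higher in Linzhi Tibetan than in Lhasa White by a log2 difference of 0.48 (unadjusted p = 0.0386, limma adjusted p = 0.622). COX7A2, the liver-type form of subunit VIIa in mammals, stood at 105 and 133 RPKM for Linzhi Tibetan, 119.9 and 143 for Lhasa White, 95.5 and 149 for Chahua and 122 and 117 for White Leghorn. Together with COX7A2L and NDUFA5 it was 1 of the 3 subunit genes that were higher in Lhasa White 2 than in Lhasa White 1. Its relative COX7A2L was at 15.1 to 21.3 RPKM, with COX7A2 5.15-fold to 8.36-fold above it. COX4I2, COX6A2 and COX7A1 have no row under those symbols and are not analysed here. In Chahua 2 the median deviation of the complex was 0.25, the highest of any complex in any library, and 7 of 8 genes were above their mean, with COX5A below it.

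Complex V joins a catalytic head of alpha and beta subunits to a membrane rotor. ATP5B stood at 1509 and 1859 RPKM for Linzhi Tibetan, 1862 and 1463 for Lhasa White, 2323 and 1289.9 for Chahua and 1915 and 1963 for White Leghorn. The Chahua libraries held both its highest and its lowest level, 1.80-fold apart. ATP5C1, the gamma subunit of the central stalk, stood at 574 and 619, 580.4 and 487, 624 and 688, and 619 and 566 RPKM in that order, highest in Chahua 2. The ratio of ATP5B to ATP5C1 was 1.87 in Chahua 2, 3.72 in Chahua 1 and 2.63 to 3.47 elsewhere. Like that of SDHC to SDHD, this ratio was not set in advance. The ratio of UQCRC1 to UQCRC2 in complex III was 0.987 in Chahua 2, within the range of 0.955 (Lhasa White 2) to 1.2 over the libraries. ATP5C1 averaged 565 ± 55.7 RPKM (highland) and 624 ± 49.9 (lowland, SD, n = 4, log2 difference -0.15, SE 0.102, limma adjusted p = 0.999).

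ATP5G2 and ATP5G3, which in mammals encode the same mature subunit c of the rotor ring, were at 196 to 239 and 583 to 886 RPKM. ATP5G2 was the steadiest subunit gene of all 56, while ATP5G3 shared the low value of Linzhi Tibetan 1, and its level exceeded that of ATP5G2 by 2.77-fold there and 3.24-fold to 3.94-fold in the others. Among the low members, ATP5S stood at 3.85 and 4.93 RPKM for Linzhi Tibetan, 7.61 and 5.24 for Lhasa White, 5.03 and 3.73 for Chahua and 4.21 and 3.76 for White Leghorn. Its high library was Lhasa White 1, and its groups overlapped at 5.41 ± 1.59 and 4.18 ± 0.605 RPKM (SD, n = 4, log2 difference 0.28, SE 0.166, limma adjusted p = 0.999). ATP5J2 was at 11.8 RPKM in Linzhi Tibetan 1, its highest library, and 7.21 in Lhasa White 2, its lowest, and these rest on 158 to 276 reads a library.

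The assembly factors, which build complex I without staying in it, had means of 3.76 to 51.7 RPKM, with a median of 12.96. NDUFAF1, a partner of the early membrane arm, was at 47.8 to 56.0 RPKM, with a highest library 1.17-fold above the lowest, the smallest spread of the 61 genes. NDUFAF6 was at 18.4 to 22.9 RPKM. NDUFAF7, an arginine methyltransferase, stood at 11.9 and 13.4 RPKM for Linzhi Tibetan, 11.5 and 11.5 for Lhasa White, 13.8 and 16.4 for Chahua and 12.5 and 12.7 for White Leghorn. It was lower in Lhasa White than in Chahua by 0.36 on the log2 scale (unadjusted p = 0.0457, limma adjusted p = 0.91), and it averaged 12.1 ± 0.890 RPKM (highland) and 13.8 ± 1.76 (lowland, SD, n = 4, log2 difference -0.18, SE 0.105, limma adjusted p = 0.999). NDUFAF4 was at 7.74 RPKM in Linzhi Tibetan 1 and 14.3 in Chahua 2, the extremes. Of the 5 factors 4 had lower and 1 higher fitted means in highland breeds, and the higher one was the Z-linked NDUFAF2. Their median deviation was -0.15 in Lhasa White 2, with NDUFAF4 above its mean, and -0.11 in Linzhi Tibetan 1, with 2 of 5 above.

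The test of any difference among the 4 breeds, a moderated F test in limma, called 0 of 61 members, where 0% of all genes passed, and the smallest adjusted p of a member was 0.793. At an unadjusted p under 0.05 it held 0 members, against 6.52% of all genes. In the 6 breed pairs 0 members passed, where 0.00865% of all genes passed for Lhasa White against Chahua and 0% in each other pair. Only 6 results of members in those pairs had an unadjusted p under 0.05. There was 1 for Linzhi Tibetan against Lhasa White (7.81% of all genes), 1 for Linzhi Tibetan against Chahua (7.06%), 2 for Lhasa White against Chahua (5.18%), 2 for Lhasa White against White Leghorn (4.04%), and 0 for Linzhi Tibetan (6.14%) or Chahua (7.87%) against White Leghorn. Those of COX5A, SDHD, NDUFAF7 and NDUFB4 are given above. ATP5S was higher in Lhasa White than in White Leghorn (log2 difference 0.56, unadjusted p = 0.0484, limma adjusted p = 1), and NDUFAF2 higher in Linzhi Tibetan than in Chahua (0.84, unadjusted p = 0.0229, limma adjusted p = 0.69). By breed, the median log2 difference of subunits was -0.13 for Lhasa White against Chahua and -0.09 against White Leghorn, -0.10 for Linzhi Tibetan against Chahua and -0.01 against White Leghorn, 0.04 for Linzhi Tibetan against Lhasa White and 0.05 for Chahua against White Leghorn. These pairs share libraries and are given side by side only.

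Members on the Z chromosome divided the libraries as the level of the W-linked transcript did, a level that itself differed between breed groups. Birds have ZW females and ZZ males, and birds compensate the dose of Z-linked genes only in part. By symbol in the GRCg7b gene table, 60 of the 61 genes had a chromosome, and NDUFS4, COX7C, ATP5A1 and NDUFAF2 lie on Z. NDUFS4 (ENSGALG00000028026) stood at 43.0 and 68.5 RPKM for Linzhi Tibetan, 64.1 and 24.1 for Lhasa White, 29.6 and 35.7 for Chahua and 31.2 and 61.4 for White Leghorn. COX7C, a small complex IV subunit, stood at 236 and 333, 282 and 118, 146 and 210.2, and 145 and 272 RPKM in that order. Both were higher in each of the 4 libraries with ATP5A1W at or below 4.02 RPKM than in any of the 4 with at least 398. NDUFAF2, at 4.72 and 5.18, 5.03 and 2.89, 2.17 and 2.50, and 2.79 and 4.84 RPKM, and ATP5A1, at 1156 and 1469, 1616 and 728, 908 and 639.9, and 845 and 1587 RPKM, divided in the same way. The share of all genes, or of Z-linked genes, that divide without overlap in this way was not counted. Over the 457 Z-linked genes tested the division was less even. Their median deviation was 0.001 in Chahua 2, against -0.195 in Lhasa White 2, -0.357 in Chahua 1 and -0.243 in White Leghorn 1.

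Lhasa White and White Leghorn each held 1 library of either kind, so the division could be seen within a breed. In Lhasa White the library with low ATP5A1W (4.02 RPKM, 154 reads) exceeded the one with high ATP5A1W 2.65-fold for NDUFS4, 2.4-fold for COX7C, 2.22-fold for ATP5A1 and 1.74-fold for NDUFAF2, where the median autosomal subunit had a ratio of 1.2 and the median Z-linked gene 1.29. In White Leghorn the ratios were 1.97, 1.88, 1.88 and 1.73, against 0.979 for autosomal subunits and 1.24 for Z-linked genes. Each is 1 library against 1, with no replicate, and Lhasa White 2 also differed in chamber and matrix transcripts. The 5 largest highland to lowland differences of the 61 genes were those of these 4 members and of ATP5S, at 0.29 for NDUFS4, 0.28 for COX7C, 0.34 for ATP5A1 and 0.44 for NDUFAF2, with standard errors of 0.206 to 0.345 and a limma adjusted p of 0.999 each. Since 3 of 4 highland and 1 of 4 lowland libraries had ATP5A1W at or below 4.02 RPKM, these differences and the W-linked signal cannot be told apart by breed group. With the ATP5A1W level as a covariate, the fitted differences were -0.28 for NDUFS4, -0.25 for COX7C, -0.17 for ATP5A1 and 0.12 for NDUFAF2. That fit also holds 1 mean per breed. ATP5A1W differed little within Linzhi Tibetan (0.0774 and 0.355 RPKM) or Chahua (445 and 496). The slope thus rested mainly on the pairs of Lhasa White and White Leghorn, 1 of them with Lhasa White 2. For ATP5A1 the covariate is its own near copy. Sex is not labelled, so these are not sex-adjusted differences.

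ATP5A1 has a near copy on W, ATP5A1W, and reads may be split between them in ways these values do not show. The sum of the pair was at 1156 and 1469 RPKM for Linzhi Tibetan, 1619.8 and 1127 for Lhasa White, 1353 and 1136 for Chahua and 1255 and 1587 for White Leghorn. The W copy made up 32.6% to 43.7% of that sum in the 4 libraries with at least 398 RPKM of it and at most 0.248% in the others. Summed, the gene pair averaged 1343 ± 241 RPKM (highland) and 1333 ± 191 (lowland, SD, n = 4), and the 2.52-fold range of ATP5A1 over libraries was 1.44-fold for the sum.

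**Figure D4:**
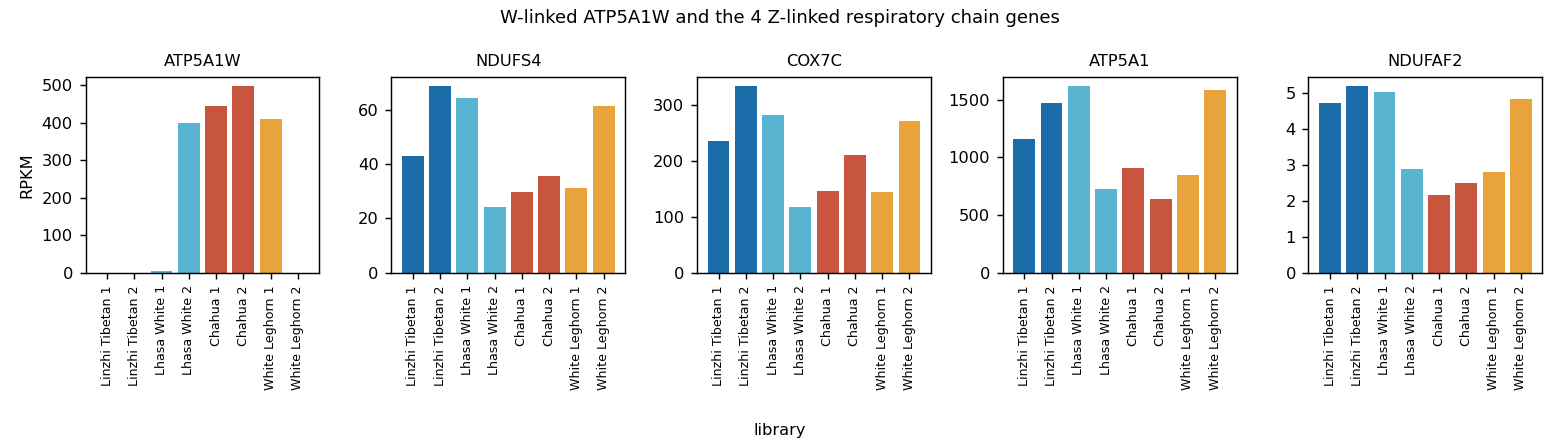
RPKM of ATP5A1W and of the 4 Z-linked respiratory chain genes in each of the 8 libraries (bars, linear axes from 0, single libraries without error bars). The Z-linked genes are higher in Linzhi Tibetan 1 and 2, Lhasa White 1 and White Leghorn 2, where ATP5A1W is at or below 4.02 RPKM.

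In Chahua 2 the members were spread apart more than shifted together. Its deviations had an SD of 0.28 over the 56 subunits, against 0.14 to 0.19 in the other libraries, and it was the highest library for 21 genes and the lowest for 9. Over all genes tested it was the highest for 25.2% and the lowest for 18.4%, and 56.6% of all genes deviated by more than 0.2 there, close to the 58.9% of subunits. By SD over all genes tested, Chahua 2 was at 0.43, as was Lhasa White 2, where the SD of subunits was 0.16. ATP5A1 (-0.72), NDUFV1 (-0.55), ATP5B (-0.44), NDUFS8 (-0.41) and SDHC (-0.33) were among the lowest log2 deviations there. NDUFV3 (0.52), NDUFA5 (0.38), NDUFB1 (0.37), NDUFS6 (0.36) and COX4I1 (0.34) had the highest. Split by chromosome, a division made after the values were seen, the 22 subunit genes on chromosomes 1 to 5 had a median of 0.26 in Chahua 2 and the 22 on chromosomes 11 and above one of -0.04, where all genes tested had 0.13 and -0.05. The 8 on chromosomes 6 to 10 had a median of -0.06, where all genes tested there had 0.07. Ventricular markers had their highest sum in Chahua 2, at 34559 RPKM against 18227 to 24761, though IRX4, at 61.7, was not raised (16.2 to 90.9). Of the cardiomyocyte markers RYR2 was highest there, at 69.9 RPKM against 23.2 to 36.0. TNNI1 was lowest there, at 1162 RPKM against 1988 to 2661. No test of these differences was made, nor of the part that the marker levels of Chahua 2 have in the subunit levels.

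**Figure D5:**
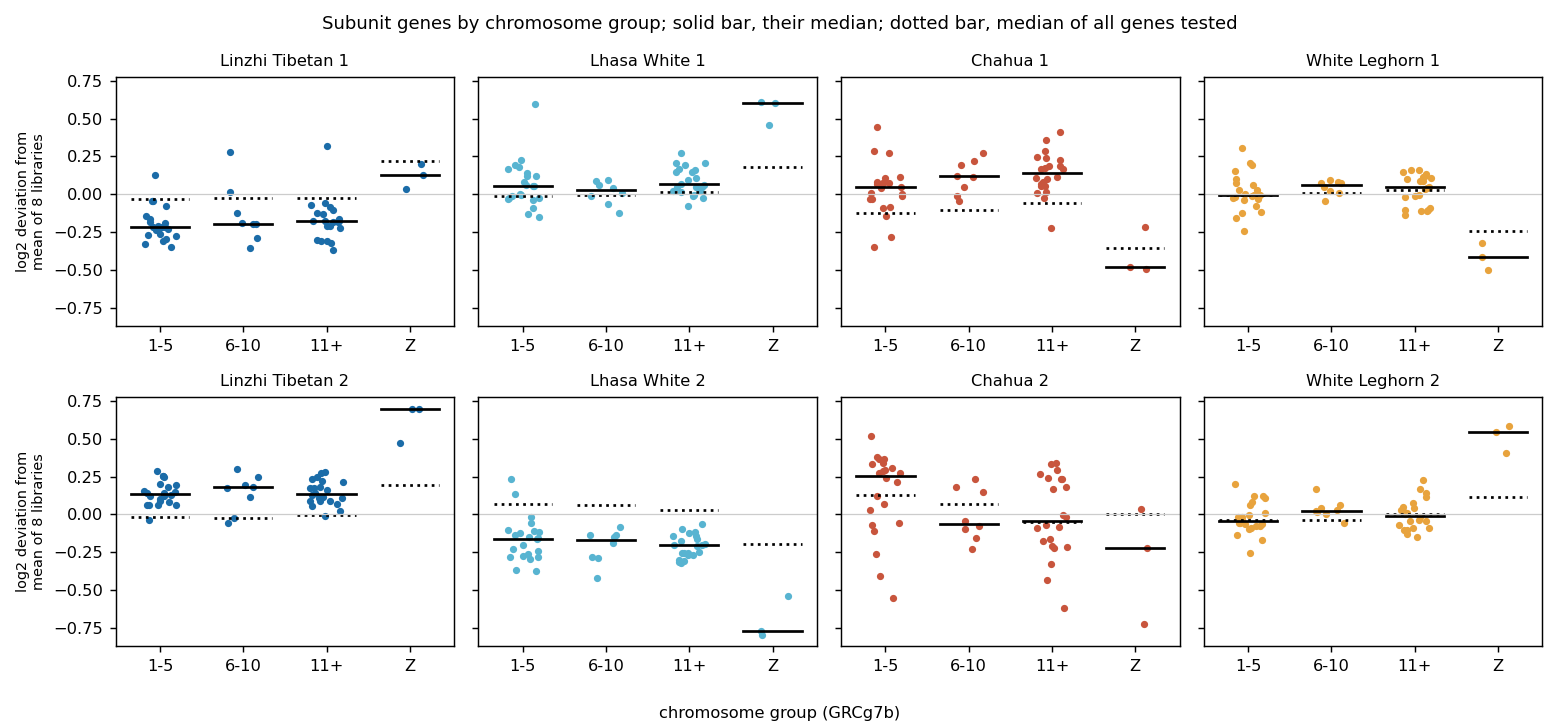
Log2 deviation of subunit genes from their mean over 8 libraries, by library (panels) and chromosome group (horizontal axis, GRCg7b). Points are genes, solid bars their medians and dotted bars the medians of all genes tested. In Chahua 2 the genes of chromosomes 1 to 5 have a median of 0.26 and those of chromosomes 11 and above one of -0.04, and the Z-linked genes part from the others in most libraries.

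The 13 mitochondrially encoded subunits, read from the mitochondrial genome and carried by complexes I, III, IV and V, had levels of their own. They took 14.6% of mapped reads in Chahua 2, 22.4% in Chahua 1 and 16% to 19.4% in the others. Their median log2 deviation was -0.64 in Chahua 2 and 0.31 in Chahua 1, but -0.11 in Linzhi Tibetan 1 and 0.02 in Lhasa White 2, the libraries with low nuclear subunits. In Chahua 2, COX3 at 36800 RPKM and MT-ND3 at 7141 were not low, against 25320 to 32165 and 5124 to 7195 in the others. MT-CO1, at 31687 RPKM there, also lay within the range of the others, 25011 to 44111. Between highland and lowland breeds 7 of the 13 were lower and 6 higher, with a median of -0.01, and 0 passed.

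Other mitochondrial genes were taken from lists chosen with earlier results of these data known. Of 17 genes of the TCA cycle and pyruvate dehydrogenase, which supply NADH and succinate, 17 were lower in highland breeds, with a median log2 difference of -0.15, and 0 passed. They were low in Linzhi Tibetan 1 (median deviation -0.23) and Lhasa White 2 (-0.17), as the subunits were. CS, the citrate synthase gene, stood at 249 and 312 RPKM for Linzhi Tibetan, 331 and 249 for Lhasa White, 420.3 and 202 for Chahua and 342 and 374 for White Leghorn. Of 11 electron carrier genes, which make ubiquinone or pass electrons to it, 9 were lower (median -0.19) and 0 passed. Among them ETFDH, which feeds electrons from fatty acid oxidation to ubiquinone, was at 38.9 to 52.6 RPKM over highland and 48.8 to 61.4 over lowland libraries. It had the largest log2 difference of these 11 genes, at -0.27. Of 20 other assembly factors of complexes I, III, IV and V, 13 were lower (median -0.04), of 13 regulators of mitochondrial biogenesis 12 were lower (median -0.06), and of 59 mitochondrial ribosomal protein genes 27 were lower and 32 higher (median 0.02), with 0 passing in each list. At an unadjusted p under 0.05 limma gave 1 electron carrier and 0 genes of the other lists, against 3.13% of all genes. Of all genes tested 42% were lower in highland breeds. The direction counts of the lists were not repeated with single libraries left out. The ribosomal proteins lay near their mean in Linzhi Tibetan 1, with a median deviation of -0.02, against -0.19 for the respiratory chain subunits, but in Lhasa White 2 they had one of -0.14, against -0.20.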

How the data were processed

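The deposited table holds values for 15873 Ensembl gene identifiers in 8 libraries, headed RPKM by the authors. Division by gene model length and mapped reads was taken from that unit and from the read recovery below, as the headers do not spell it out. Per the labels' protocols, RNA was TRIzol-extracted and libraries came from an Illumina mRNA preparation kit. The submitters' processing notes name BWA. The sources used here give no genome build, gene models, counting rule or strand setting, so near copies and overlapping genes cannot be told apart.

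Whole reads were recovered from the RPKM steps in 99.99% of rows (tolerance 0.05 reads), giving gene model lengths and library totals of 17245669 to 22157553 reads.

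Values were transformed to log2(RPKM + 1), which understates differences of low genes. A model with 1 mean per breed was fitted in limma 3.58.1 (R 4.3.3, empirical Bayes with a variance trend, 4 residual degrees of freedom) to the 11556 genes with at least 1 RPKM in at least 2 libraries. P-values were two-sided and adjusted by Benjamini-Hochberg over all genes within a contrast. The procedure was tested on simulated data. Python 3.11.15, NumPy 2.4.6, pandas 2.3.3 and matplotlib 3.10.9 were used for descriptions and plots. Chromosomes came from the GRCg7b RefSeq gene table by symbol, without coordinates.

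The values of 1 member are not reported here, although it is included in the counts and medians. The members and gene lists were chosen with earlier results of these data known. Per-library values or ranges are given for the most and least abundant member of each complex. They are also given for the 2 with the smallest p between groups and among breeds, Z-linked members and isoform pairs. Values of NDUFV1, NDUFV2, NDUFV3, NDUFS6 and NDUFS8 fall outside this rule and were picked after they were seen. The same holds for the Chahua 2 deviations of NDUFB10, NDUFAB1, NDUFS3, NDUFS5 and NDUFS7. Values of the assembly factors NDUFAF4 and NDUFAF6 also fall outside it. Those of CS, ETFDH, COX3, MT-ND3 and MT-CO1, which are no members, were not set in advance either. Other members are named by level. Alternatives were another pseudocount, no filter or a stricter one, median-of-ratios and quantile scaling, voom on recovered reads, a replicate block, left-out libraries and an ATP5A1W covariate.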

Additional observations from a re-analysis of the deposited data

Results flagged for a closer look

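In groups of 4 libraries, 4 of 74 examined values stood far from the others, and chance marks about 1 group in 20. NDUFB1 in Chahua 2, at 1657 RPKM, was far above the other lowland libraries. NDUFA5 in Linzhi Tibetan 2, at 114 RPKM, was far above the other highland ones. The median log2 deviation of complex II in Chahua 2 was -0.059, far below the other lowland libraries, and that of complex IV there was 0.251, far above them.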

How the results depend on the processing

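The count of members called stayed at 0 in every contrast and under each of the 17 alternatives, with a smallest adjusted p of 0.079. Leaving out 1 library in turn kept 0 calls and gave subunit medians of -0.17 to 0.00 (0.002 without Linzhi Tibetan 1, -0.174 without Linzhi Tibetan 2) and assembly factor medians of -0.12 to -0.03. The subunit median was -0.015 without both Lhasa White 2 and Chahua 2, and -0.11 with median-of-ratios scaling. With the replicate block it was -0.084 with 0 members called. Replicate numbers were not used to pair the samples in the chosen fit. Deviations of same-numbered libraries correlated at -0.33 to 0.17 between breeds. With 2 libraries per breed this gives 1 value per breed pair, too little to decide whether the numbers mark a pairing. Of 253 differences of 15 named members under the alternatives, 245 kept their direction and 8 turned. Over the single omissions NDUFS4 ran from -0.056 to 0.630 and COX7C from -0.034 to 0.593 (without Lhasa White 1 and 2, respectively) and UQCRFS1 from -0.188 (without Linzhi Tibetan 2) to 0.005 (without Linzhi Tibetan 1). With the ATP5A1W covariate, whose slope rested mainly on Lhasa White and White Leghorn, NDUFS4 was at -0.281, COX7C at -0.249 and ATP5A1 at -0.174. Without both Lhasa White 2 and Chahua 2, UQCRFS1 was at 0.009 and COX4I1 at 0.019. The cause was not tested. Under 2 scalings, 1 of 112 library medians moved beyond the spread of replicates, that of assembly factors in Chahua 1 (0.065 with median-of-ratios scaling). Over all genes, 1 was called between groups in the chosen fit and 0 with voom on recovered reads, the replicate block, no filter, the covariate or any library left out except Linzhi Tibetan 2. The standard errors of subunit differences, 0.0891 to 0.345, limit what could be detected.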
